A study of Mus musculus with 12 samples.

Results

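The 39 genes described here make up an interferon response set of the mouse: the receptor chains for interferons, transcription factors that act behind the receptors, sensors of nucleic acid, regulators, GTPases and antiviral effectors. They were taken by symbol, and were chosen with earlier results of these data known. A gene counted as measured when a probe set of the array was annotated to it alone. Of the 39 genes, 35 had such a probe set, among 19937 genes named in all. Isg15, Gbp2 and Igtp were found only on probe sets that carry several genes, Ifi44 is not named here, and no values are given for these genes. Of the 35 genes measured, 29 had a signal above the array's median probe set on 3 arrays or more and were tested, and Dhx58, Ifit1, Ifit3, Mx1, Mx2 and Oasl2 did not pass this filter.

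Expression was measured on 12 Affymetrix mouse arrays, in 4 groups of 3, with RNA of sorted CD4+ T cells of the Peyer's patches (lymphoid tissue in the gut wall). All groups came from IL-21eGFP mice, which carry a BAC transgene that makes green fluorescent protein (GFP) as a reporter of interleukin 21, a cytokine that T cells give to B cells. Strain, age and the number of animals are not stated, and all cells came from a CD4+ gate negative for MHCII and Epcam. GFP+ Tfh were CXCR5+PD1+ T follicular helper cells with the reporter on, GFP- Tfh were CXCR5+PD1+ cells with it off, and the other groups were GFP- cells sorted as CXCR5+PD1- or as CXCR5-PD1-. The study set out to compare the GFP+ and GFP- Tfh cells, and the design also allows both Tfh gates to be set against both PD1- gates, GFP- Tfh against CXCR5-PD1- cells, and the PD1- gates against each other. Titles and sort protocol name the GFP+ Tfh as CXCR5+PD1+, whereas the sample characteristics give both receptors as negative for these arrays and list every array under the cell type of T follicular helper. The CXCR5+PD1- gate appears in the titles but not in the sort protocol.

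Interferons are secreted proteins that warn cells of infection. Type I interferons bind a receptor made of the chains IFNAR1 and IFNAR2, and interferon gamma, which T cells and natural killer cells make, binds a receptor made of IFNGR1 and IFNGR2. Receptor-bound JAK kinases then phosphorylate STAT proteins. Type I signals act mainly through a complex of STAT proteins with IRF9, which binds the interferon-stimulated response element, and interferon gamma acts through STAT dimers that bind gamma-activated sites and induce IRF1, a transcription factor that switches on further genes. In T cells, the amount of the IFNGR2 chain limits the response to interferon gamma. The sensors and effectors of the set (RNA helicases, 2'-5' oligoadenylate synthetases, IFIT proteins, Mx GTPases) are the usual readout of type I interferon, and guanylate-binding proteins and immunity-related GTPases are the usual readout of interferon gamma.

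Promoter stretches of 8 members are printed to show the letters that these factors are known to read and where, among the genes described below, they do and do not occur. The sequences come from RefSeq windows of assembly GRCm38.p6 (250 bases before to 50 bases after a gene's start) and are written 5' to 3' on the gene's strand. Capitals mark matches to a core of the interferon-stimulated response element (GAAA, any 2 bases, GAAA) or to TTCNNNGAA, a gamma-activated site, each searched on both strands.
Ifit1: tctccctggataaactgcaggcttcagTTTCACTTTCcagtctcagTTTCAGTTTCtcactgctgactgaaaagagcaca
Gbp3: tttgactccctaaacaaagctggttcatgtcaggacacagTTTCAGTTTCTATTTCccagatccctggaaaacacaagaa
Irgm1: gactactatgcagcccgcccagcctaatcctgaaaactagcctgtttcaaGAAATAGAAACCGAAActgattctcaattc
Irf1: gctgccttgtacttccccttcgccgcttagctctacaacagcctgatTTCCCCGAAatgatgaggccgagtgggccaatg
Isg20: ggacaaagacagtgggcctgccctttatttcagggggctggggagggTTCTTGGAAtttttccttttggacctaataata
Ifngr2: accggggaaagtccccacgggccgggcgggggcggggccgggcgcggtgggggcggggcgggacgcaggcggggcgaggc
Ifngr1: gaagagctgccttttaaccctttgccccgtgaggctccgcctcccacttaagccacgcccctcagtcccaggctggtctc
Trim25: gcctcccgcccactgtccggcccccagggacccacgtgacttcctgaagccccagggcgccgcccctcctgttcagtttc

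The Ifit1 stretch lies at chr19:34640758-34640837 (plus strand) and holds 2 separate matches to the response element core, read here on the opposite strand. The Gbp3 stretch at chr3:142559959-142560038 (plus strand) and the Irgm1 stretch at chr11:48871421-48871500 (minus strand) hold 2 overlapping matches each. Single matches to TTCNNNGAA lie in the Irf1 stretch at chr11:53769877-53769956 (plus strand) and in the Isg20 stretch at chr7:78913304-78913383 (plus strand). Some genes have several annotated starts and windows. TTCNNNGAA occurred in 1 of 2 Irf1 windows and 1 of 3 Isg20 windows, and the response element core in 1 of 2 Gbp3 windows. The last 80 bases before the starts of Ifngr2 (chr16:91546979-91547058, plus strand), Ifngr1 (chr10:19591869-19591948, plus strand) and Trim25 (chr11:88999323-88999402, plus strand) hold neither motif, and neither do their whole windows. All stretches lie upstream of the annotated starts.

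A window was found for 30 of the 39 genes. The response element core occurred in the windows of 14 of these 30 genes (46.67%), against 3.99% of all 27025 genes in the table. TTCNNNGAA occurred in 10 of the 30 (33.33%), against 9.55% of all genes. Both motifs occurred in Bst2, Igtp and Oas1a, and in Bst2 the matches share at least a base. These shares describe the letters alone, and no test was run on them.

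The gates were checked against markers of their cell types. The median of the CD4+ T cell markers lay 4.19 to 4.62 log2 units above the array median in every array. The median of the Tfh markers lay 3.06 to 4.04 units above it in the Tfh gates and 1.13 to 1.52 in the PD1- gates. The Cxcr5 transcript did not separate the CXCR5+PD1- cells (5.61 ± 0.37, mean ± SD, n = 3) from the CXCR5-PD1- cells (5.71 ± 0.43), so that the former gate is not marked by its own receptor at the RNA level. The Il21 transcript stood at 10.6 ± 0.31 in GFP+ Tfh and 9.96 ± 0.34 in GFP- Tfh (difference 0.63, SE 0.85, not called). In CXCR5+PD1- cells it stood at 6.5 ± 1.11 and in CXCR5-PD1- cells at 6.64 ± 1.09. The GFP- Tfh gate was thus not free of Il21 at the RNA level. The GFP+ Tfh arrays stood apart by their spread, since genes on them deviated from the group mean by 0.287 to 0.405 log2 units (root mean square), against 0.163 to 0.204 on the other arrays, and each group was given its own weight in the fit for this reason. The female transcript Xist was high on replicate 3 of every group (10.65 to 11.25) and low on replicates 1 and 2, so that the groups held the sexes alike. By the same values, replicate 3 came from other animals than replicates 1 and 2. The labels do not say whether replicates 1 and 2 were separate animals. The p-values therefore measure only how far these samples spread, which may in part be technical, and 3 arrays a group limit the precision.

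Across the 29 genes tested, the Tfh gates differed from the PD1- gates in 9, of which 7 were lower and 2 higher in Tfh. Genes lower in Tfh were both chains of the interferon gamma receptor (Ifngr1 and Ifngr2), Irf1, the RNA sensor Ddx58, the ubiquitin ligase Trim25 and the effectors Ifit2 and Oas2. The type I receptor chain Ifnar2 and the exonuclease Isg20 were higher. Values are log2 expression, differences are log2 differences ± SE, and a gene was called at a limma adjusted p under 0.05, with Benjamini-Hochberg adjustment over all 11240 genes tested. In the same comparison 9.79% of all genes tested were called (4.71% higher and 5.08% lower), against 31% of the interferon genes.

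The median log2 difference of the 29 genes was -0.12, against -0.02 for all genes tested, and single genes ranged from -2.24 to 0.61. On 4 of the 29 genes (Ifngr2, Trim25, Ifit2 and Oas2) every Tfh array lay below every PD1- array, and on 0 every Tfh array lay above, against 7.56% of all genes tested without overlap (3.49% higher and 4.07% lower). The count of 9 rested on several arrays, since it was 2 without GFP+ Tfh replicate 2 (Ifngr2 and Trim25), 5 without GFP- Tfh replicate 1 and 5 without GFP+ Tfh replicate 3. With GFP- Tfh alone on the Tfh side, a choice made after seeing the data, 7 genes were called, and with GFP+ Tfh alone 2 (Ifngr2 and Trim25).

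**Figure D1:**
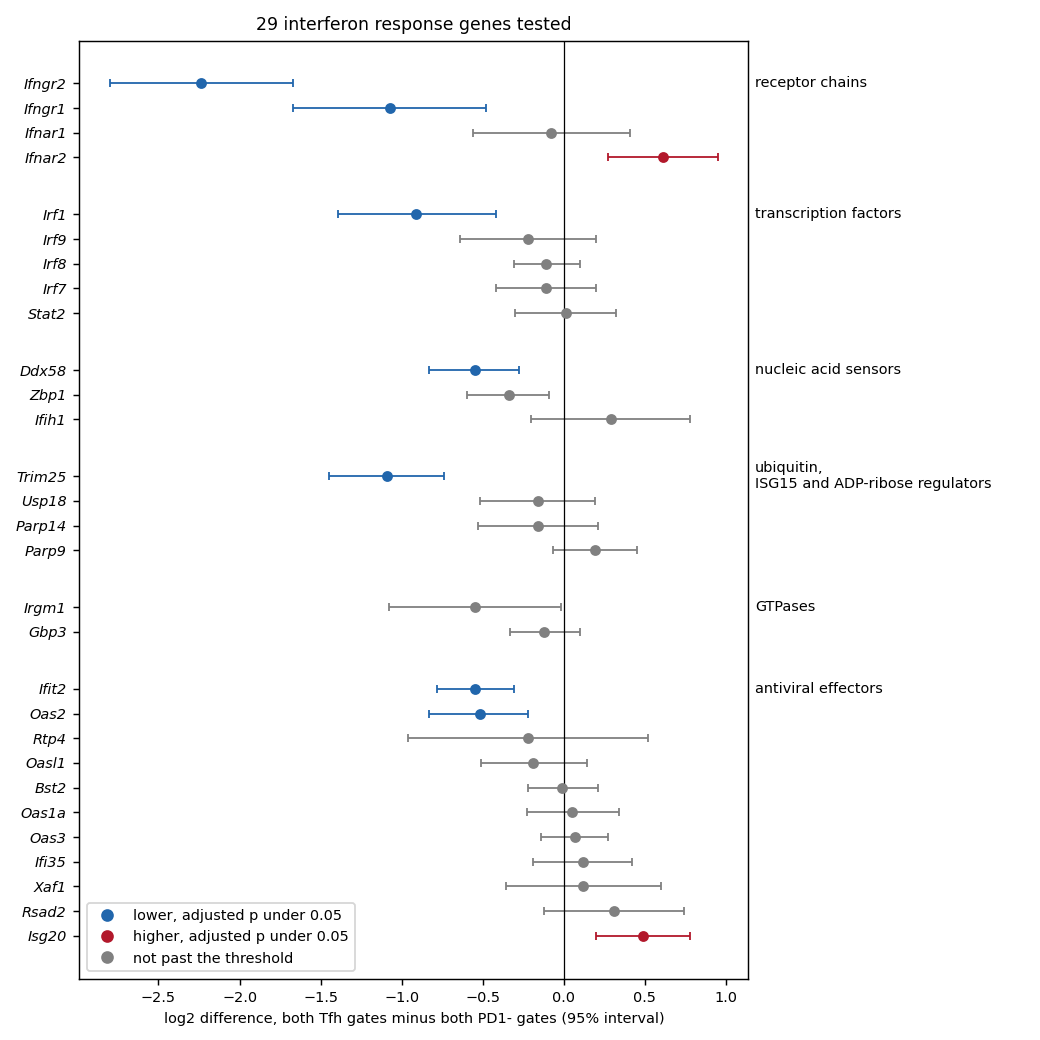
Log2 difference of each of the 29 genes tested between both Tfh gates and both PD1- gates (x axis, log2 units), grouped by role, with bars for the 95% interval of the limma fit over 12 arrays. Blue points are genes lower in Tfh and red points genes higher in Tfh at an adjusted p under 0.05, and Ifngr2 lies farthest from 0 at -2.24.

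Both chains of the interferon gamma receptor were lower in Tfh, Ifngr2 by the widest difference of the 29 genes, and neither type I receptor chain was called lower. Ifngr2, the signalling chain that binds JAK2, stood at 8.07, 7.35 and 7.85 on the GFP+ Tfh arrays (replicates 1, 2 and 3), at 8.28, 8.31 and 8.56 on the GFP- Tfh arrays, at 9.63, 10.53 and 10.71 in CXCR5+PD1- cells and at 9.76, 10.57 and 10.63 in CXCR5-PD1- cells. Every Tfh array lay below every PD1- array, with a gap of more than a log2 unit between the groups. The difference was -2.24 ± 0.26 (adjusted p = 0.000155, 95% interval -2.80 to -1.67), a 4.71-fold lower level in Tfh. It was called with each Tfh gate alone, at -2.55 ± 0.40 for GFP+ Tfh (adjusted p = 0.00404) and -1.92 ± 0.26 for GFP- Tfh, and under all 24 alternatives tried (adjusted p from 1.59e-05 to 0.00507).

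Ifngr1, the ligand-binding chain, stood at 9.16, 9.44 and 7.99 in GFP+ Tfh, at 8.80, 9.77 and 9.44 in GFP- Tfh, at 9.66, 10.33 and 10.35 in CXCR5+PD1- cells and at 9.71, 10.45 and 10.53 in CXCR5-PD1- cells. The gates overlapped, because GFP- Tfh replicate 2 lay above replicate 1 of both PD1- gates. Ifngr1 was 2.1-fold lower in Tfh (-1.07 ± 0.27, adjusted p = 0.0258). This call was lost when any of 6 arrays was left out, with differences of -1.22 to -0.85 and adjusted p from 0.0501 to 0.0689. These were GFP+ Tfh replicates 2 and 3, GFP- Tfh replicate 1, CXCR5+PD1- replicate 3 and CXCR5-PD1- replicates 2 and 3. Ifngr1 was also not called with GFP+ Tfh alone (-1.31 ± 0.43, adjusted p = 0.138) or GFP- Tfh alone (-0.84 ± 0.27, adjusted p = 0.081). With replicates 1 and 2 of each group only it differed by -0.75 (adjusted p = 0.235).

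Ifnar1, the signalling chain of the type I receptor, stood at 8.28, 9.40 and 8.86 in GFP+ Tfh, at 8.17, 9.33 and 8.92 in GFP- Tfh, at 8.55, 8.92 and 8.98 in CXCR5+PD1- cells and at 8.82, 9.20 and 8.97 in CXCR5-PD1- cells. Its arrays overlapped fully between the gates, and the replicates of a Tfh gate lay farther apart than the group means. The difference was -0.08 ± 0.22 (adjusted p = 0.915), with an interval from -0.56 to 0.41 that leaves room for a difference of either sign.

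Ifnar2, the other type I chain and the docking site of STAT2, ran the other way from the interferon gamma receptor. It stood at 9.21, 9.89 and 8.84 in GFP+ Tfh, at 9.17, 9.14 and 9.22 in GFP- Tfh, at 8.87, 8.44 and 8.58 in CXCR5+PD1- cells and at 8.83, 8.31 and 8.79 in CXCR5-PD1- cells. A single Tfh array, GFP+ Tfh replicate 3, fell within the range of the PD1- arrays. Ifnar2 was 1.53-fold higher in Tfh (0.61 ± 0.16, adjusted p = 0.0267), and the call was lost without GFP+ Tfh replicate 1 or 2, GFP- Tfh replicate 1 or CXCR5+PD1- replicate 3 (0.47 to 0.63, adjusted p from 0.0501 to 0.204).

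The chains Ifnar2, Ifnar1 and Ifngr2 lie next to each other on chromosome 16, with Il10rb, a chain of the interleukin 10 and lambda interferon receptors, between Ifnar2 and Ifnar1 in the RefSeq order of GRCm38.p6. Il10rb differed by -0.14 ± 0.14 between the gates and was not called. Along this stretch the differences therefore ran from 0.61 for Ifnar2 through -0.14 and -0.08 to -2.24 for Ifngr2.

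**Figure D2:**
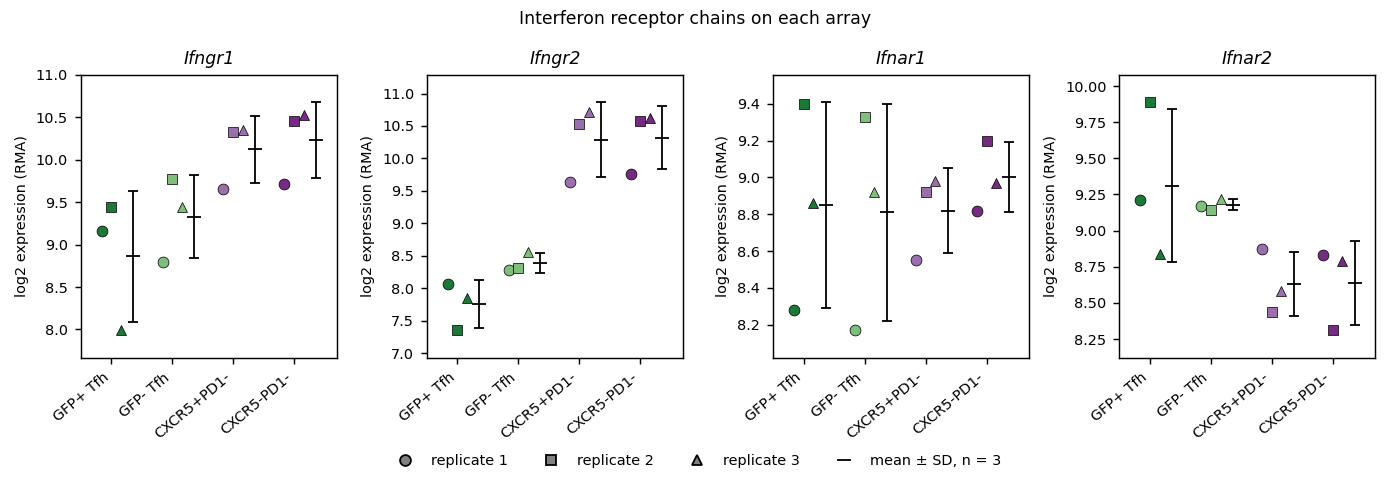
Log2 expression of the 4 interferon receptor chains on each array, by sorted group, with the replicate number as the symbol and mean ± SD (n = 3) as the bar. Each panel has its own log2 axis, and only Ifngr2 shows no overlap between the Tfh gates (7.35 to 8.56) and the PD1- gates (9.63 to 10.71).

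Of the 5 transcription factors, Irf1 was lower in Tfh and the other 4 were not called. Irf1, the factor that interferon gamma induces through its gamma-activated site, stood at 9.05, 9.16 and 7.95 in GFP+ Tfh, at 9.00, 8.58 and 8.98 in GFP- Tfh, at 10.08, 9.80 and 9.13 in CXCR5+PD1- cells and at 9.87, 9.74 and 9.51 in CXCR5-PD1- cells. The lowest PD1- array, CXCR5+PD1- replicate 3, lay at the level of the highest Tfh array, and all other PD1- arrays lay above all Tfh arrays. Irf1 was 1.87-fold lower in Tfh (-0.91 ± 0.22, adjusted p = 0.0219). Without GFP+ Tfh replicate 2 or 3 or GFP- Tfh replicate 2 the adjusted p was 0.0507 to 0.065, with differences of -1.02 to -0.71. A second Irf1 probe set, not used in the test, read 8.43, 8.22 and 7.57 in GFP+ Tfh, 9.05, 8.57 and 8.62 in GFP- Tfh, 9.24, 9.40 and 9.38 in CXCR5+PD1- cells and 9.69, 9.44 and 9.71 in CXCR5-PD1- cells, and there no Tfh array reached the PD1- arrays.

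Stat2 and Irf9, the partners of the type I response complex, showed no called difference. Stat2 stood at 7.60, 8.28 and 7.08 in GFP+ Tfh, at 7.55, 7.49 and 7.36 in GFP- Tfh, at 7.63, 7.36 and 7.66 in CXCR5+PD1- cells and at 7.74, 7.46 and 7.44 in CXCR5-PD1- cells (difference 0.01 ± 0.14, interval -0.30 to 0.32). Irf9 stood at 8.05, 6.52 and 6.52 in GFP+ Tfh, where replicate 1 lay far above the others, at 7.33, 7.52 and 7.27 in GFP- Tfh, at 7.70, 7.29 and 7.65 in CXCR5+PD1- cells and at 7.34, 7.02 and 7.50 in CXCR5-PD1- cells (difference -0.22 ± 0.19, interval -0.64 to 0.20).

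Irf7, the factor that amplifies type I interferon production, stood at 7.07, 6.81 and 7.08 in GFP+ Tfh, at 7.54, 7.22 and 6.97 in GFP- Tfh, at 7.17, 7.28 and 7.25 in CXCR5+PD1- cells and at 7.29, 7.46 and 6.89 in CXCR5-PD1- cells (difference -0.11 ± 0.14, interval -0.42 to 0.20). Irf8, a factor of myeloid and B cells that interferon gamma also induces, lay close to the array median, at 6.30, 6.54 and 6.76 in GFP+ Tfh, at 6.57, 6.64 and 6.49 in GFP- Tfh, at 6.76, 6.55 and 6.59 in CXCR5+PD1- cells and at 6.64, 6.59 and 6.81 in CXCR5-PD1- cells. Its difference was -0.11 ± 0.09 (interval -0.31 to 0.10).

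Among the sensors of nucleic acid, 1 of the 3 tested was called. Ddx58, which encodes the RNA sensor RIG-I, stood at 8.66, 7.89 and 7.79 in GFP+ Tfh, at 8.35, 8.03 and 8.19 in GFP- Tfh, at 8.89, 8.79 and 8.79 in CXCR5+PD1- cells and at 8.70, 8.38 and 8.69 in CXCR5-PD1- cells. GFP+ Tfh replicate 1 lay among the CXCR5-PD1- arrays, and the other Tfh arrays lay below every PD1- array. Ddx58 was 1.47-fold lower in Tfh (-0.55 ± 0.13, adjusted p = 0.0142), and the adjusted p was 0.108 without GFP+ Tfh replicate 2 (-0.50).

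Zbp1, a sensor of Z-form nucleic acid, was not called, at -0.34 ± 0.12 (adjusted p = 0.0988). Ifih1, which encodes the RNA sensor MDA5, ran from 7.12 to 8.48 in the Tfh gates and from 7.19 to 7.75 in the PD1- gates (0.29 ± 0.22, adjusted p = 0.559), with replicate 1 of both Tfh gates above the rest, at 8.48 and 8.44. Dhx58, the RNA helicase LGP2, was not tested and lay between 5.49 and 6.36 on all arrays.

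Trim25 was the 1 called gene of the 4 tested regulators. It encodes the ubiquitin ligase that activates RIG-I and that can also attach ISG15, and it stood at 7.88, 7.37 and 6.96 in GFP+ Tfh, at 8.27, 7.89 and 7.63 in GFP- Tfh, at 8.59, 8.66 and 8.95 in CXCR5+PD1- cells and at 8.69, 8.63 and 9.05 in CXCR5-PD1- cells. All Tfh arrays lay below all PD1- arrays. Trim25 was 2.13-fold lower in Tfh (-1.09 ± 0.16, adjusted p = 0.00101), and like Ifngr2 it was called with GFP+ Tfh alone (-1.36 ± 0.25, adjusted p = 0.0119), with GFP- Tfh alone (-0.83 ± 0.16) and under all 24 alternatives tried (adjusted p from 0.000177 to 0.0143). The other regulators were not called: Usp18, which removes ISG15 from proteins, differed by -0.16 ± 0.16, Parp14 by -0.16 ± 0.17 and Parp9 by 0.19 ± 0.12 (adjusted p from 0.436 to 0.703).

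Of the 11 effectors tested, Ifit2 and Oas2 were lower in Tfh, Isg20 was higher and 8 were not called. Ifit2, an RNA-binding inhibitor of translation, stood at 6.36, 5.89 and 6.02 in GFP+ Tfh, at 6.18, 6.10 and 6.12 in GFP- Tfh, at 6.97, 6.68 and 6.67 in CXCR5+PD1- cells and at 6.69, 6.37 and 6.56 in CXCR5-PD1- cells. The highest Tfh array (6.36) and the lowest PD1- array (6.37) all but met. The Tfh values lie close to or below the array medians (6.34 to 6.45), where such arrays compress differences. Ifit2 was 1.46-fold lower in Tfh (-0.55 ± 0.11, adjusted p = 0.00642), and the adjusted p was 0.0713 without GFP+ Tfh replicate 2 (-0.50).

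Oas2, a synthetase whose product activates RNase L, stood at 6.84, 6.87 and 6.72 in GFP+ Tfh, at 6.81, 6.84 and 6.78 in GFP- Tfh, at 7.30, 7.50 and 7.21 in CXCR5+PD1- cells and at 7.75, 7.19 and 7.05 in CXCR5-PD1- cells. The Tfh arrays lay within a narrow band below all PD1- arrays. Oas2 was 1.44-fold lower in Tfh (-0.52 ± 0.14, adjusted p = 0.0325). Its call was lost when any 1 of the 6 Tfh arrays, or CXCR5+PD1- replicate 2, was left out (-0.54 to -0.48, adjusted p from 0.0534 to 0.149). Its relatives Oas1a (0.05 ± 0.13), Oas3 (0.07 ± 0.09) and Oasl1 (-0.19 ± 0.15) were not called.

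Isg20, an exonuclease that degrades viral RNA, stood at 7.82, 7.77 and 8.49 in GFP+ Tfh, at 7.65, 7.85 and 7.48 in GFP- Tfh, at 7.40, 7.49 and 7.11 in CXCR5+PD1- cells and at 7.43, 7.22 and 7.47 in CXCR5-PD1- cells. The GFP+ Tfh arrays lay above all PD1- arrays, and GFP- Tfh replicate 3 lay among them. Isg20 was 1.40-fold higher in Tfh (0.49 ± 0.13, adjusted p = 0.0351), the largest adjusted p of the 9 calls. It was lost without GFP+ Tfh replicate 2 or 3, GFP- Tfh replicate 1 or 2, CXCR5+PD1- replicate 3 or CXCR5-PD1- replicate 1 or 2 (0.37 to 0.55, adjusted p from 0.0528 to 0.0928), and with the replicate number as a block (adjusted p = 0.0525).

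Effectors widely read as signs of type I interferon were mostly near or below the array medians, or were not called. Ifit1, Ifit3, Mx1, Mx2 and Oasl2 did not pass the filter, and their values ran from 4.70 (Ifit3) to 6.72 (Ifit1). Bst2, which tethers budding virus to the cell, was tested and lay between 6.81 and 7.16 on every array (-0.01 ± 0.10, interval -0.22 to 0.21). Rsad2, which encodes viperin, differed by 0.31 ± 0.20 (adjusted p = 0.448), Rtp4 by -0.22 ± 0.34, Xaf1 by 0.12 ± 0.22 and Ifi35 by 0.12 ± 0.14, and their arrays overlapped.

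**Figure D3:**
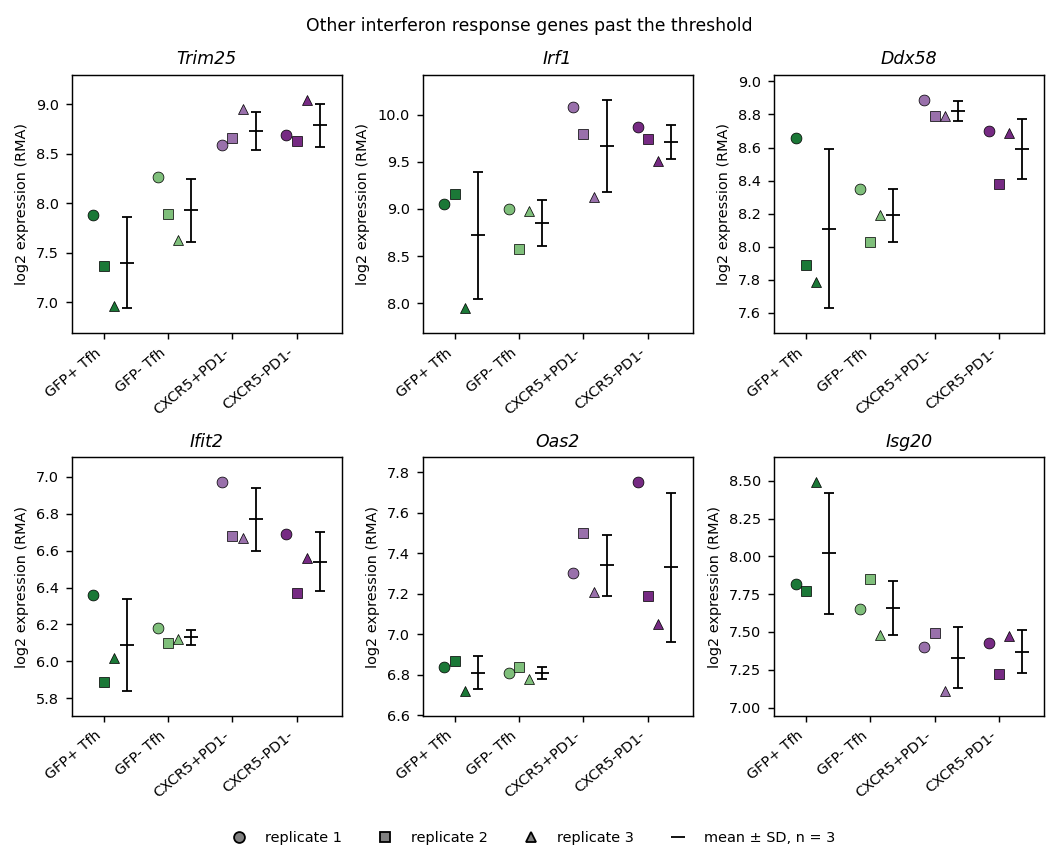
Log2 expression of the 6 called members other than receptor chains on each array, by sorted group, with the replicate number as the symbol and mean ± SD (n = 3) as the bar. Trim25, Ifit2 and Oas2 show every Tfh array below every PD1- array, and Isg20 is the panel in which Tfh arrays lie higher; each panel has its own log2 axis.

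Of the GTPases, Irgm1 and Gbp3 could be tested and neither was called. Irgm1, which acts in autophagy of intracellular pathogens, stood at 6.47, 5.56 and 5.60 in GFP+ Tfh, at 6.61, 6.14 and 6.12 in GFP- Tfh, at 6.42, 7.13 and 6.36 in CXCR5+PD1- cells and at 6.48, 6.23 and 7.19 in CXCR5-PD1- cells. Its gates overlapped, at -0.55 ± 0.24 (adjusted p = 0.215). Gbp3 differed by -0.12 ± 0.10 (adjusted p = 0.601).

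The motif letters of the windows were also set beside the calls, as a description. Of the 8 called members with a window, the response element core occurred in 1 (Ddx58) and TTCNNNGAA in 4 (Ifit2, Isg20, Irf1 and Ifnar2). Of the 15 members with a window that were tested and not called, they occurred in 8 and 5. Genes of both directions are among those with TTCNNNGAA.

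Markers of other cell types were read beside these results. The list of CD8, NK and gamma delta T cell markers (8 genes, 4 tested) had a median below the array median in every group. This list median lay at -0.90 to -0.66 log2 units in the Tfh gates, -0.68 to -0.45 in CXCR5+PD1- cells and -0.38 to -0.21 in CXCR5-PD1- cells. Prf1, the perforin gene of that list, was 1.54-fold lower in Tfh (-0.62 ± 0.14, adjusted p = 0.0127). List medians of B cell (9 genes, 3 tested) and myeloid markers (15 genes, 6 tested) lay below the array median on every array. So did that of epithelial markers (8 genes, 2 tested). The myeloid genes Tyrobp and Cd68 and the epithelial genes Krt8 and Lgals4, however, each lay above the array median on every array. The myeloid gene Lyz2 lay higher on every GFP+ Tfh array (6.27 to 7.64) than on the GFP- Tfh arrays (5.56 to 5.83). It was not called there (1.38 ± 0.48), and Fcgr3, Batf3, Fcer1g, Cd68 and Tyrobp overlapped between these gates. Of the 3 B cell markers tested, Pax5 was called higher in Tfh (6.46 against 6.16, 0.30 ± 0.08, adjusted p = 0.0333), at values near the array medians. Cd22 was not called (0.18 ± 0.09, adjusted p = 0.327). Cd79b means were 6.40 and 6.52 in GFP+ and GFP- Tfh, against 6.55 in CXCR5+PD1- and 6.33 in CXCR5-PD1- cells. The B cell list as a whole thus did not rise with Pax5. The median of the 6 markers of plasmacytoid dendritic cells, the strongest producers of type I interferon, lay above the array median on every array. It lay 0.24 to 0.47 above in the Tfh gates, 0.30 to 0.45 in CXCR5+PD1- cells and 0.38 to 0.72 in CXCR5-PD1- cells. Single markers lay below the array median, such as Ccr9 in GFP+ Tfh (5.24 to 5.63). Bst2 is both a marker of this list and an interferon member. The part of these markers in the interferon differences was not tested, and in sorted bulk RNA fewer cells of a type and less RNA per cell cannot be told apart.

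GFP- Tfh and CXCR5-PD1- cells, which share the reporter state, were then compared on their own. Of the 29 genes 2 were called, both lower in Tfh (6.9%, against 7.04% of all genes tested, 4.07% higher and 2.96% lower), and 8 had an unadjusted p under 0.05 (17.6% of all genes tested). Ifngr2 was 3.82-fold lower (-1.93 ± 0.30, adjusted p = 0.00202) and was called under all 17 alternatives tried (adjusted p from 0.000294 to 0.025). Trim25 was 1.81-fold lower (-0.86 ± 0.19, adjusted p = 0.0166), and its call was lost without GFP- Tfh replicate 2 (adjusted p = 0.0644) and without CXCR5-PD1- replicate 3 (adjusted p = 0.0674). Of the CD8, NK and gamma delta T cell markers, Cd8b1 (-0.82 ± 0.18, adjusted p = 0.0154) and Prf1 (-0.63 ± 0.16, adjusted p = 0.0364) were also lower in GFP- Tfh, and their part in these differences was not tested.

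The other members called with all gates did not pass the threshold in this smaller comparison. Irf1 differed by -0.86 ± 0.26 (adjusted p = 0.073), Oas2 by -0.52 ± 0.16 (adjusted p = 0.0816), Ifit2 by -0.41 ± 0.13 (adjusted p = 0.0792), Ifngr1 by -0.89 ± 0.32 (adjusted p = 0.134) Ifnar2 by 0.54 ± 0.18 (adjusted p = 0.116), Ddx58 by -0.40 ± 0.15 (adjusted p = 0.151) and Isg20 by 0.29 ± 0.15 (adjusted p = 0.382). Irf1 was called under 7 of 17 alternatives (adjusted p from 0.00984 to 0.249 over all 17), among them the mean of its probe sets (adjusted p = 0.00984) and a fit of these 6 arrays alone (adjusted p = 0.0156). Oas2 was called without CXCR5-PD1- replicate 3 (-0.66, adjusted p = 0.0402) and with 1 weight per array (adjusted p = 0.0474). With the replicate number as a block 5 members were called, namely Ifngr2, Trim25, Irf1, Ifit2 and Ifngr1. The share of all genes called with the block is not given here, so this count is not a result about the members as a set. The arrays did not overlap for 9 members, 7 lower and 2 higher, against 21.6% of all genes tested (11.4% higher and 10.2% lower), and the median difference was -0.04, against 0 for all genes.

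GFP+ and GFP- Tfh, the pair the study set out to compare, differed in 0 of the 29 genes by limma, against 0.0267% of all genes tested (3 genes, all lower). At an unadjusted p under 0.05 there was 1 member, against 4.1% of all genes tested. That gene was Gbp3, a guanylate-binding GTPase, at 7.59, 7.29 and 7.32 in GFP+ Tfh and 7.86, 7.88 and 7.70 in GFP- Tfh, so that every GFP+ array lay lower (-0.41 ± 0.17, adjusted p = 1). Ifngr2 was the other member without overlap, again lower in GFP+ Tfh (-0.63 ± 0.44, interval -1.59 to 0.32), and 8.74% of all genes tested showed no overlap here (3.09% higher and 5.65% lower). The intervals are wide: Irf1 differed by -0.13 ± 0.38, Ifngr1 by -0.47 ± 0.46 and Isg20 by 0.36 ± 0.22. The median difference was -0.04, against -0.02 for all genes.

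The PD1- gates also differed in 0 of the 29 genes by limma, as in 0% of all genes tested, and 1 member had an unadjusted p under 0.05 (3.59% of all genes tested). This was again Gbp3, at 7.57, 7.46 and 7.76 in CXCR5+PD1- cells and 7.85, 7.98 and 7.73 in CXCR5-PD1- cells (-0.26 ± 0.11, adjusted p = 0.997). The arrays did not overlap for 2 members, both higher in CXCR5+PD1- cells, against 8.74% of all genes tested (5.37% higher and 3.36% lower). Differences ranged from -0.26 to 0.32, and Ifngr2 differed by -0.03 ± 0.28.

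**Figure D4:**
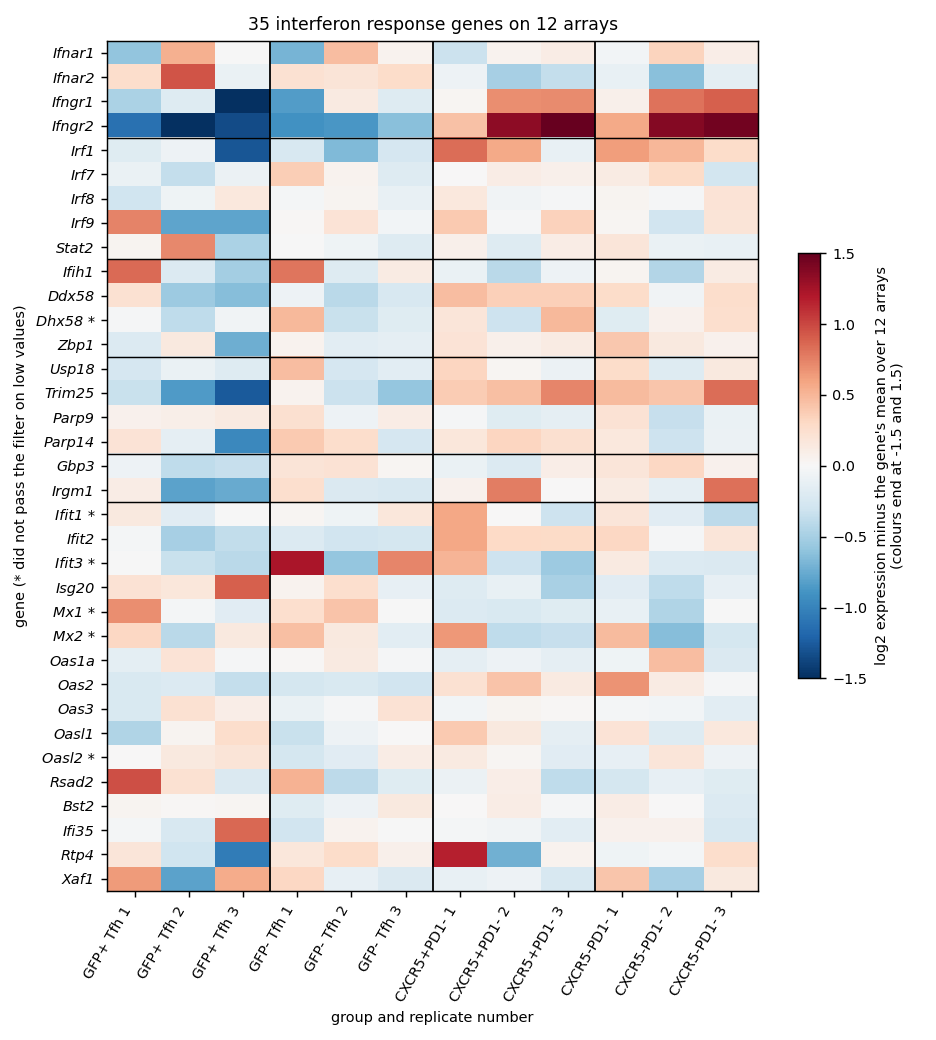
Log2 expression of the 35 interferon response genes measured (rows, grouped by role, with an asterisk on the 6 genes below the filter) on the 12 arrays (columns, by sorted group and replicate number), as the difference from each gene's mean over the arrays. Colours end at -1.5 and 1.5 log2 units, and Ifngr2 is blue in all Tfh columns and red in all PD1- columns, whereas most effector rows show no such split.

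The wider interferon pathway was read from a second list of ligands, kinases, inhibitors, GTPases, effectors and antigen presentation genes. Of its 92 genes on the array 74 were tested, and between both Tfh gates and both PD1- gates 3 were higher and 11 lower in Tfh (18.9%, beside the 9.79% of all genes), with a median difference of -0.09. Leaving out GFP+ Tfh replicate 2 gave 8 calls. The signalling genes next to the receptors split: Jak2, the kinase bound by IFNGR2, was higher in Tfh, and Jak1, the kinase bound by IFNGR1 and IFNAR2, was lower.

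Jak2 stood at 11.19, 11.51 and 11.17 in GFP+ Tfh, at 11.18, 11.71 and 11.37 in GFP- Tfh, at 9.79, 10.14 and 10.12 in CXCR5+PD1- cells and at 9.90, 10.16 and 10.15 in CXCR5-PD1- cells. The gates were apart by a log2 unit or more on every array, and Jak2 was 2.48-fold higher in Tfh (1.31 ± 0.13, adjusted p = 4.89e-05). Ptpn11, which encodes the phosphatase SHP2, a brake on JAK-STAT signals that also serves growth factor signals, was 2.8-fold higher (1.49 ± 0.17, adjusted p = 0.000158), with Tfh arrays from 9.12 to 10.12 and PD1- arrays from 7.98 to 8.39. Jak1 stood at 11.05, 11.03 and 10.72 in GFP+ Tfh, at 11.19, 11.20 and 11.14 in GFP- Tfh and at 11.40 to 11.56 in the PD1- gates, a 1.35-fold lower level in Tfh (-0.44 ± 0.08, adjusted p = 0.00394).

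The guanylate-binding proteins of this list lay lower in Tfh where they were called. Of the 7 GTPases tested in the list, 3 were lower and 4 were not called (42.9% called, beside 9.79% of all genes tested). Of the 11 antigen presentation and chemokine genes tested, 0 were called, with a median difference of -0.01. Gbp7 stood at 7.76, 6.94 and 6.35 in GFP+ Tfh, at 8.35, 8.23 and 7.60 in GFP- Tfh, at 8.83, 8.58 and 8.50 in CXCR5+PD1- cells and at 9.02, 8.65 and 8.78 in CXCR5-PD1- cells (-1.19 ± 0.19, 2.28-fold lower, adjusted p = 0.00176). Gbp11 was 1.8-fold lower (-0.85 ± 0.13, adjusted p = 0.00098), with Tfh arrays below the array medians. Guanylate-binding proteins have close copies, so probes of one can pick up another.

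Further calls lay among effectors and sensors. Slfn1, a growth regulator of T cells, stood at 9.46, 8.59 and 9.08 in GFP+ Tfh, at 9.93, 10.12 and 9.55 in GFP- Tfh and at 10.34 to 10.76 in the PD1- gates (-1.07 ± 0.15, 2.1-fold lower, adjusted p = 0.000644). Parp11, an ADP-ribosyltransferase, was 1.76-fold lower (-0.81 ± 0.14, adjusted p = 0.00229) and Ddx60, a helicase of RNA sensing, 1.78-fold lower (-0.83 ± 0.16, adjusted p = 0.00589). Aim2, the sensor of cytosolic DNA, was called higher in Tfh, at 9.33 to 9.87 against 8.92 to 9.26 (0.54 ± 0.13, adjusted p = 0.018), and its adjusted p was 0.0592 without GFP+ Tfh replicate 1 and 0.11 without GFP+ Tfh replicate 2.

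The ligand gene Ifng was not called. It stood at 6.61, 6.53 and 6.37 in GFP+ Tfh, at 7.92, 6.32 and 6.31 in GFP- Tfh, at 7.14, 6.75 and 6.75 in CXCR5+PD1- cells and at 7.70, 6.79 and 6.84 in CXCR5-PD1- cells (-0.32 ± 0.32, adjusted p = 0.689). Between GFP- Tfh and CXCR5-PD1- cells 3 genes of the list were higher (Jak2, Ptpn11 and Aim2) and 5 lower (Gbp11, Parp11, Ddx60, Rnf213 and Slfn1), 10.8% of the 74 tested, beside 7.04% of all genes (4.07% higher and 2.96% lower), and 3 to 5 were called when any 1 of the 6 arrays was left out (3 without CXCR5-PD1- replicate 1 or 3, 4 without GFP- Tfh replicate 1, and 5 without GFP- Tfh replicate 2 or 3 or CXCR5-PD1- replicate 2). By limma 0 were called between GFP+ and GFP- Tfh and 0 between the PD1- gates, with 4 and 1 at an unadjusted p under 0.05. With 1 weight per array, however, Slfn1 (-1.17, adjusted p = 0.0318) and Gbp7 (-1.18, adjusted p = 0.0391) were called lower in GFP+ than in GFP- Tfh, against -0.82 ± 0.25 (adjusted p = 1) and -1.04 ± 0.33 (adjusted p = 1) with 1 weight per group.

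**Figure D5:**
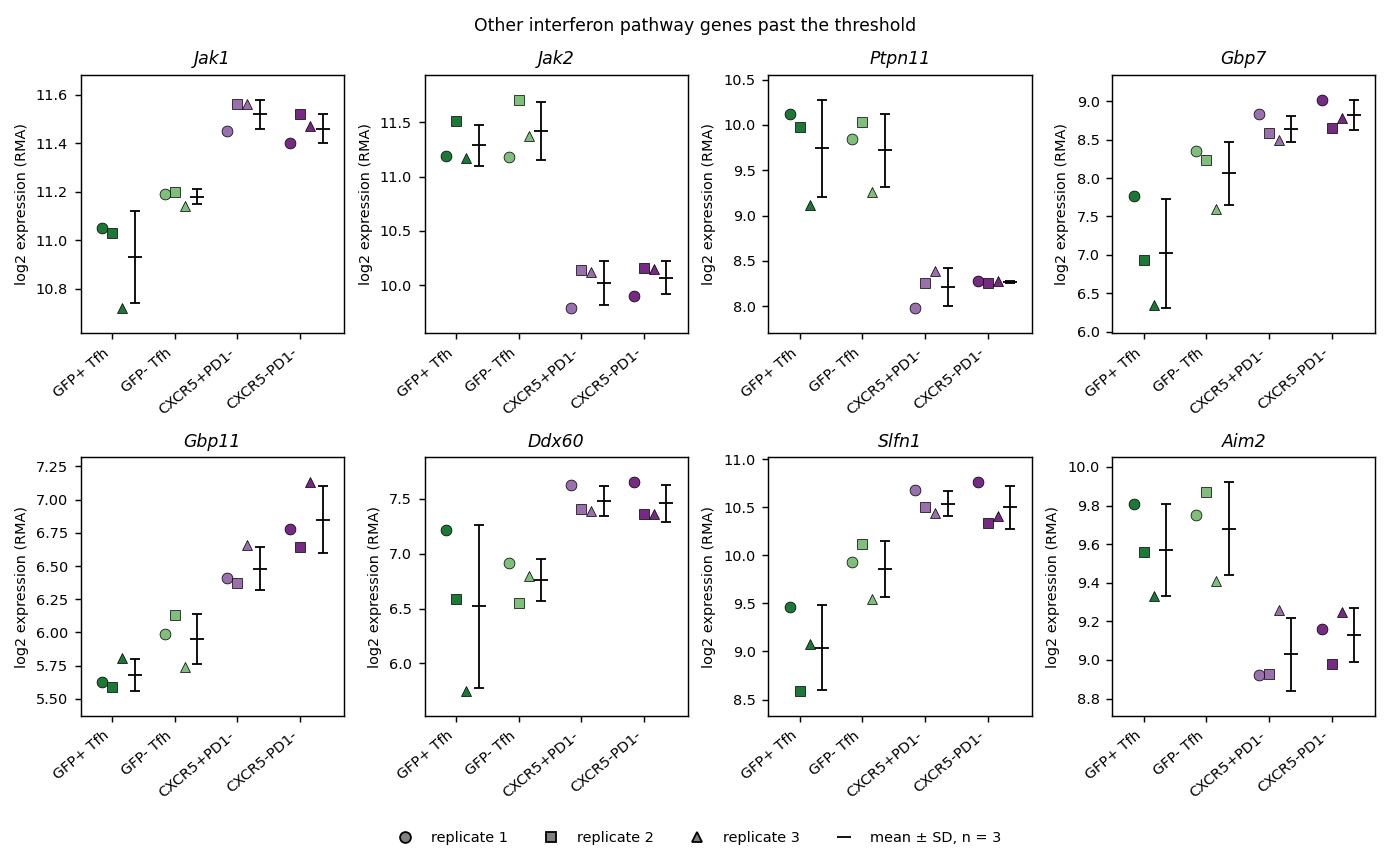
Log2 expression of 8 further interferon pathway genes called between both Tfh gates and both PD1- gates, on each array, by sorted group, with the replicate number as the symbol and mean ± SD (n = 3) as the bar. Jak2, Ptpn11 and Aim2 lie higher on every Tfh array and the other 5 genes lower, each panel with its own log2 axis.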

How the data were processed

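RNA of 12 samples of sorted mouse CD4+ T cells, 4 groups of 3, was measured on Affymetrix arrays. The deposited values are log2 expression, which the authors made by RMA in oligo, per the submitters' processing notes; tool versions and genome build are not given in the sources used here. RMA compresses differences near background. Of 34760 probe sets, 21640 carry 1 gene in the platform annotation, 1321 several and 11799 none; 87 old symbols were updated through RefSeq names. For the 954 genes with several probe sets, the one with the highest mean was used. Genes above the array median on at least 3 arrays (11240) were tested by lmFit and eBayes (limma 3.58.1, R 4.3.3), all 12 arrays in 1 model with 1 weight per group (0.39 for GFP+ Tfh and 1.2 to 1.64 for the others), two-sided, with Benjamini-Hochberg adjustment over all genes tested in each of 4 comparisons, which share samples. The script was tested on simulated data. The members and the lists were chosen with earlier results of these data known. Values on every array are given for called members, the receptor chains and 5 transcription factors; of the wider pathway, Ifng and up to 8 called genes per comparison are named, smallest adjusted p first. The alternatives were other weights, eBayes settings, filters, scalings, probe set rules, a replicate block, and leaving out arrays.

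Replicate numbers come from the titles, which do not say what a number shares. Deviations from the group means correlated between same-numbered arrays at 0.231, 0.21 and 0.353 for the PD1- gates against each other. The numbers were taken as pairs there only in the alternative with a replicate block, which changed no call. The differences, SE and p-values printed for the PD1- gates come from the fit without the block. In the other comparisons at least 1 correlation was under 0.1.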

Additional observations from a re-analysis of the deposited data

How the results depend on the processing

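Between both Tfh gates and both PD1- gates the count of 9 interferon genes called was 3 with replicates 1 and 2 of each group only and 2 with GFP+ Tfh alone on the Tfh side, and it ran from 2 to 9 when 1 array was left out. Between GFP- Tfh and CXCR5-PD1- cells the count of 2 was 1 with the same spread for all groups, 4 with 1 weight per array, 4 with the array median of the genes tested as centre and 1 to 2 when 1 array was left out. With the replicate block it was 5, and with the block the first comparison had 8 calls. Shares of all genes called with the block are not given here for these counts. Whether the numbers pair the samples in these comparisons is not settled. Xist was high on replicate 3 of every group, so sex went with the number. Same-numbered correlations were 0.174, 0.12 and 0.0403 for both Tfh gates against both PD1- gates. They were 0.196, 0.0118 and 0.094 for GFP- Tfh against CXCR5-PD1- cells, and 0.253, 0.0411 and 0.283 for GFP+ against GFP- Tfh. In the latter 2 comparisons 4 of 6 and 5 of 6 arrays correlated best with their own number. Of the 29 members, 0 were called for GFP+ against GFP- Tfh and 0 for the PD1- gates against each other under every alternative run, the replicate block included; of the wider pathway, 2 genes were called for GFP+ against GFP- Tfh with 1 weight per array. Counted once per member, comparison and alternative, a call ended 49 times and arose 12 times. Where a call existed, 0 directions turned. Directions of members not called were left out of this count. Some of them turned, such as Xaf1 between GFP+ and GFP- Tfh (-0.58 to 0.61 over the alternatives). The causes were not tested.

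Over all genes tested, both Tfh gates against both PD1- gates gave 1100 calls (529 higher, 571 lower), 1981 with 1 weight per array, 571 without GFP+ Tfh replicate 2 and 389 with GFP+ Tfh alone. Centring on the median of the genes tested gave 560 higher and 524 lower, and replicates 1 and 2 alone 470 and 301. GFP- Tfh against CXCR5-PD1- cells gave 791 calls, 429 without weights, 486 with replicates 1 and 2 alone, and 445 or 498 without GFP- Tfh replicate 1 or 2. GFP+ against GFP- Tfh gave 3 calls, 95 with 1 weight per array, 5 without weights and 0 with their arrays alone. Fitting the arrays of the compared groups alone gives no value for the first comparison, which uses all 12. Signal near the array median limits Ifit2, Irgm1, Usp18 and Gbp11.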

Other observations

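Members were also set against the replicate number across all groups, in a test added after the data were seen. Replicates 1 and 2 differ from replicate 3 in Xist, and no label says what else a number shares. In an F test of the replicate number in the limma fit with the block, 0 of the 29 members were called (0.249% of all genes tested) and 8 had an unadjusted p under 0.05 (11% of all genes tested). The smallest p-values were those of receptor chains, which read lower on replicate 1 without passing the threshold: Ifnar1 lay 0.61 higher on replicate 2 and 0.42 higher on replicate 3 (adjusted p = 0.215), Ifngr1 0.73 and 0.57 higher (adjusted p = 0.257) and Ifngr2 0.55 and 0.73 higher (adjusted p = 0.244). Ifih1, Usp18, Parp9, Irf1 and Ifit2 lay higher on replicate 1. Among genes below the filter, Mx2 read 5.81, 5.94, 6.15 and 5.97 on replicate 1 of GFP+ Tfh, GFP- Tfh, CXCR5+PD1- and CXCR5-PD1- cells, and 4.86 to 5.64 on all other arrays.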
